A study of Mus musculus with 13 samples.

Results

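Toll-like receptors are germline-encoded sensors of microbial and host-derived molecules, and the 9 genes described here, *Tlr1*, *Tlr2*, *Tlr3*, *Tlr4*, *Tlr5*, *Tlr7*, *Tlr9*, *Tlr11* and *Tlr13*, were followed by name through 13 single-cell RNA libraries made from mouse liver, in which they are 9 of 55353 listed gene symbols. Their raw UMIs, the counts of distinct captured transcripts, were read in 95563 barcodes with at least 1500 UMIs, of which 55082 (57.6%) fell into the 8 cell types compared: cDC1-like and cDC2-like dendritic cells (the 2 conventional subsets), pDC-like plasmacytoid dendritic cells, macrophage-like, neutrophil-like and B-like cells, LSEC-like liver sinusoidal endothelial cells and BEC-like biliary epithelial cells. The 9 genes together gave 102463 UMIs in cells, from 735 of *Tlr5* and 844 of *Tlr9* to 24921 of *Tlr3* and 29337 of *Tlr2*.

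C57BL/6J mice, 6 to 12 weeks old, received no DDC diet (D0, steady state) or the diet for 3 or 5 days (D3 and D5, onset) or for 9, 19 or 25 days (D9, D19 and D25, progression). DDC, 3,5-diethoxycarbonyl-1,4-dihydrocollidine, causes cholangitis and ductular reaction. Each of these 6 days has 1 library of isolation protocol A (CD45+, Lyve-1+, Pdpn+, Epcam+ and CD31+ Lyve-1- cells, live singlets and retinoid-autofluorescent cells, single-index kit) and 1 of protocol B (CD45+ CD11c+ Cd64-, Epcam+ and CD3e+ Lyve-1- cells and live cells of a stellate cell preparation, dual-index kit), so that steady state has 2 libraries, onset 4 and progression 6. A 13th library, STOP, of protocol B, holds cells taken 7 days after an 18-day diet was withdrawn and has no replicate. All mice are wild type, the sort sets the shares of cell types, and the labels do not say how many mice a library holds, so that p-values measure the spread between libraries, which may in part be technical.

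Libraries held 29307190 to 108602421 UMIs and 1541 (D3 B) to 14764 (D9 A) cells with a median of 3350 to 12013 UMIs per cell, and D19 B carries the day D18 in 1 of its labels. Any pair of libraries shared at most 49 cell barcodes (D9 A with D25 A, 0.46% of the smaller library), none with the same total count. The types were named from lists of markers, so that the levels of the same markers describe the types and are no independent check. All 12 macrophage, 10 neutrophil, 8 B and 8 LSEC markers had their highest level in that type. So did 9 of 10 BEC, 7 of 8 cDC1, 7 of 8 pDC and 5 of 8 cDC2 markers, where *Sirpa*, *Flt3* and *Ffar2* were higher elsewhere. A gate on the same markers, barcode by barcode, gave the same type to 73.6% of the cells of the 8 types. Between 9.46% (D25 B) and 44.8% (D0 A) of a library's cells stayed unnamed. Types with under 20 cells in a library were not used there, which left cDC2-like, macrophage-like and LSEC-like cells in 12 atlas libraries (those other than STOP), cDC1-like and neutrophil-like cells in 11, pDC-like and BEC-like cells in 9 and B-like cells in 7.

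Receptors of the family divide by where they signal and what they bind. *Tlr3*, *Tlr7*, *Tlr9*, *Tlr11* and *Tlr13* act in endosomes, to which the chaperone *Unc93b1* carries them, and bind nucleic acids or, for *Tlr11*, a parasite protein, whereas *Tlr1*, *Tlr2*, *Tlr4* and *Tlr5* act at the cell surface on bacterial lipids and proteins. In the liver they matter because portal blood brings gut-derived microbial products past sinusoidal endothelium and Kupffer cells, the resident macrophages.

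Among the 8 types, by the mean over libraries, *Tlr3* and *Tlr11* were highest in cDC1-like cells, *Tlr7* and *Tlr9* in pDC-like cells, *Tlr1* in macrophage-like cells, and *Tlr2*, *Tlr4*, *Tlr5* and *Tlr13* in neutrophil-like cells. Within libraries the leading type was not always the same: neutrophil-like cells were highest in 9 of 11 for *Tlr13*, 6 of 11 for *Tlr2*, 4 of 11 for *Tlr4* and 4 of 11 for *Tlr5*, and pDC-like cells in 5 of 9 for *Tlr9*. Levels are given as CPM, the UMIs of a gene per 1000000 UMIs of all genes in the summed cells of a type and library. They are compared between types for 1 gene at a time, not between genes. Each type was set against the mean of the other 7 types by edgeR's quasi-likelihood test on the summed counts. The library was a block, and p-values were adjusted over 13405 genes. The mean of the other types is taken over log2 levels, not over CPM. A type can thus be called higher with a mean CPM under that of the others, as *Tlr13* was in cDC1-like cells.

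**Figure D1:**
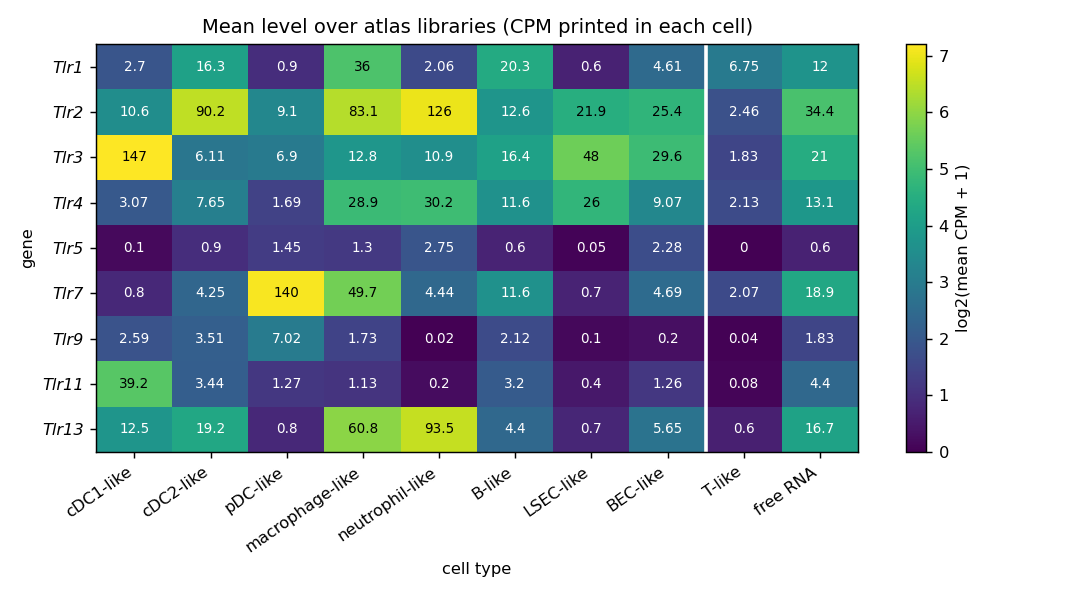
Mean level of each Toll-like receptor gene (vertical axis) in each cell type (horizontal axis) over atlas libraries with at least 20 cells, coloured by log2(mean CPM + 1) with the mean CPM written in each cell; the 2 columns right of the white line are T-like cells and free RNA. *Tlr3* stands at 147 CPM and *Tlr11* at 39.2 CPM in cDC1-like cells, and *Tlr7* at 140 CPM in pDC-like cells.

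Of the 72 pairs of gene and type, 29 were called higher and 31 lower at an adjusted p under 0.05 (edgeR). These calls are relative to the mean log2 level of the other types. Types differ in a large part of the transcriptome, so these counts stand beside the share of all tested genes called in the same direction. Macrophage-like cells had 7 of 9 receptors called higher (all but *Tlr3* and *Tlr11*), where 30.2% of all genes were. In cDC2-like cells the count was 6 (*Tlr1*, *Tlr2*, *Tlr5*, *Tlr9*, *Tlr11* and *Tlr13*) against 28.5% of all genes. In cDC1-like cells it was 4 (*Tlr3*, *Tlr9*, *Tlr11* and *Tlr13*) against 28.4%, and in neutrophil-like cells 4 (*Tlr2*, *Tlr4*, *Tlr5* and *Tlr13*) against 28%. In pDC-like cells it was 3 (*Tlr5*, *Tlr7* and *Tlr9*) against 26.8%. LSEC-like cells had 2 (*Tlr3* and *Tlr4*) against 40.4%, BEC-like cells 2 (*Tlr3* and *Tlr5*) against 42%, and B-like cells 1 (*Tlr1*) against 14.4%. Lower calls numbered 7 of 9 in LSEC-like cells, against 35.6% of all genes called lower. They numbered 5 in cDC1-like (35.4%), 5 in pDC-like (30.4%), 4 in neutrophil-like (32.5%) and 4 in BEC-like cells (32.2%). cDC2-like cells had 3 (29.9%), B-like cells 2 (17.7%) and macrophage-like cells 1 (25.8%). The receptors and their pathway genes were left out of the genes used for clustering, and the same 29 pairs were called higher when the cells were clustered again from 4 other random seeds.

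Background was read from barcodes with under 100 UMIs, which hold free RNA, and from T-like cells, in which these receptors were low. Free RNA held a mean of 34.4 CPM of *Tlr2*, 21 of *Tlr3*, 18.9 of *Tlr7*, 16.7 of *Tlr13*, 13.1 of *Tlr4*, 12 of *Tlr1*, 4.4 of *Tlr11*, 1.83 of *Tlr9* and 0.625 of *Tlr5*. Of the 29 pairs called higher, 3 had a mean below that of free RNA: *Tlr13* in cDC1-like cells (12.5 CPM), *Tlr11* in cDC2-like cells (3.44) and *Tlr9* in macrophage-like cells (1.73). In T-like cells the highest mean was 6.75 CPM, of *Tlr1*, and *Tlr5* had 0 UMIs in all 12 libraries. After each cell was thinned to 1500 UMIs, the lowest library's share of cells with a UMI lay above the highest share of T-like cells in 19 of the 29 pairs called higher, and in 20 without thinning. T-like cells had a median of 4133 UMIs, against 2501 in neutrophil-like and 14001 in BEC-like cells.

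*Tlr3* (chr8:45395665-45411080, minus strand, GRCm38), the endosomal receptor for double-stranded RNA that signals through *Ticam1*, reached its highest level in cDC1-like cells in all 11 libraries that hold both types. There it ranged from 93.3 CPM (D9 A) over a median of 125 to 294 (D0 A, 27 cells), with a mean of 147 ± 56.7 CPM (SD, n = 11). LSEC-like cells followed with 34.9 to 83.2 CPM (48 ± 14.7, n = 12) and BEC-like cells with 17.2 to 41.7 CPM (29.6 ± 6.72, n = 9). The lowest cDC1-like library thus lay above the highest LSEC-like library, while LSEC-like and BEC-like libraries overlapped. The log2 fold change against the other types was 3.42 (SE 0.105, adjusted p = 2.7e-41, edgeR) in cDC1-like, 1.30 (SE 0.115) in LSEC-like and 0.58 (SE 0.129) in BEC-like cells, where the call was lost in protocol A alone (adjusted p = 0.139, edgeR). Within libraries, cDC1-like cells exceeded LSEC-like cells in 11 of 11 (exact sign-flip permutation test, two-sided, p = 0.000977, the smallest possible, adjusted p = 0.0205 over 63 neighbour pairs) and LSEC-like exceeded BEC-like cells in 9 of 9 (adjusted p = 0.0246). BEC-like exceeded B-like cells in the 4 libraries they share, where the smallest possible p is 0.125. No neighbours that share 7 or fewer libraries, all pairs with B-like cells among them, could pass adjustment, since the smallest p at 7 libraries, 0.0156, came out at 0.0703. The 4 neighbours below, from B-like down to cDC2-like cells at 6.11 CPM, did not pass. Thinned to 1500 UMIs, a median of 18.5% of cDC1-like cells held a *Tlr3* UMI (73.4% unthinned), against 0.096% of T-like cells (0.265% unthinned). Across the 5 cDC1-like clusters the pooled level ran from 73 CPM, in a cluster of 42 cells, to 148 CPM.

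*Tlr11* (chr14:50357914-50363663, plus strand), which binds the profilin of apicomplexan parasites, was also highest in cDC1-like cells, in all 11 libraries. Its level there ran from 19.1 CPM (D9 A) over a median of 36.7 to 85.7 (D0 A), with a mean of 39.2 ± 18.2 CPM (SD, n = 11), and every library lay above every library of the other 7 types, of which the highest was 15.7 CPM in B-like cells of D5 B (28 cells). Neutrophil-like cells held 1 UMI in 4624 cells. The log2 fold change in cDC1-like cells was 5.63 (SE 0.252, adjusted p = 5.54e-32, edgeR), and cDC1-like exceeded cDC2-like cells, next in order at 3.44 CPM, in 11 of 11 libraries (exact permutation test, adjusted p = 0.0205). A median of 5.67% of thinned cDC1-like cells held a UMI (32.3% unthinned), and the highest T-like library had 0.0531%. In BEC-like cells *Tlr11* averaged 2.19 CPM over 5 libraries of protocol B and 0.104 CPM over 4 of protocol A, beside 7.03 and 1.77 CPM in free RNA of the same protocols. The part of free RNA in this difference was not tested.

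*Tlr7* (chrX:167304929-167330558, minus strand) binds single-stranded RNA. It was highest in pDC-like cells in 9 of 9 libraries, at 87.4 CPM (D25 B), a median of 133 and at most 206 CPM (D0 A, 21 cells), mean 140 ± 33.5 (SD, n = 9), and next in macrophage-like cells at 35.7 to 64.8 CPM (49.7 ± 8.59, n = 12). The libraries of both types did not overlap. The log2 fold changes were 4.78 (SE 0.172, adjusted p = 2.34e-38, edgeR) in pDC-like and 3.42 (SE 0.141) in macrophage-like cells, and pDC-like exceeded macrophage-like cells in 9 of 9 libraries, with an exact permutation adjusted p of 0.0246. With at least 50 cells 7 libraries were left, too few to pass (7 of 7, exact permutation adjusted p = 0.0757). B-like cells averaged 11.6 CPM and the other 5 types under 5 CPM, below free RNA at 18.9. A median of 18.4% of thinned pDC-like and 6.85% of thinned macrophage-like cells held a UMI (54.8% and 31.9% unthinned), against 0.17% of T-like cells (0.657% unthinned). Monocyte-like cells, outside the 8 types, held 66.8 ± 16.6 CPM (SD, n = 7), and their *Ace*- and *Cd300e*-led cluster 110 CPM.

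*Tlr9* (chr9:106222598-106226883, plus strand), the receptor for unmethylated CpG DNA, was sparse, with 594 UMIs in the 8 types of the atlas. It stood at 7.02 ± 4.89 CPM (SD, n = 9) in pDC-like cells, where libraries ran from 0 (D0 A, 21 cells) over a median of 7.66 to 15.4 CPM (D9 B), at 3.51 ± 1.16 CPM in cDC2-like cells (n = 12) and at 2.59 ± 1.58 CPM in cDC1-like cells (n = 11). These 3 types overlapped, and their order did not pass the exact permutation test (pDC-like against cDC2-like, 6 of 9 libraries, adjusted p = 0.547). The log2 fold changes were 3.21 (SE 0.296), 2.19 (SE 0.253) and 1.48 (SE 0.29), each with an edgeR adjusted p under 0.05, lost in pDC-like cells in protocol A alone (0.141). In macrophage-like cells it was 1.19 (SE 0.238). B-like cells, a known site of *Tlr9* expression, held 2.12 ± 2.96 CPM with 0 UMIs in 3 of 7 libraries and were not called (log2 fold change 1.36, SE 0.575, adjusted p = 0.0611, edgeR).

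*Tlr13* (chrX:106143204-106160493, plus strand), an endosomal sensor of bacterial ribosomal RNA, was highest in neutrophil-like cells in 9 of 11 libraries. Neutrophil-like libraries ran from 23.2 CPM (D25 B) over a median of 96.1 to 153 (D9 B), mean 93.5 ± 34.4 (SD, n = 11), and macrophage-like libraries from 23.2 (D0 B) over a median of 54.9 to 102 (D19 B), mean 60.8 ± 24.2 (n = 12). The ranges of these types overlapped and their difference did not pass adjustment (exact permutation test, p = 0.0225, adjusted p = 0.0884), whereas macrophage-like exceeded cDC2-like cells, at 19.2 ± 9.72 CPM, in 12 of 12 libraries (adjusted p = 0.0205). The log2 fold changes were 4.14 (SE 0.197, adjusted p = 6.34e-31, edgeR) in neutrophil-like, 3.46 (SE 0.165) in macrophage-like, 1.55 (SE 0.208) in cDC2-like and 0.79 (SE 0.236) in cDC1-like cells, whose mean of 12.5 CPM lay below free RNA at 16.7. A median of 13.3% of thinned neutrophil-like and 7.87% of thinned macrophage-like cells held a UMI (20.4% and 38.7% unthinned), against 0.00845% of T-like cells (0.023% unthinned). In cDC1-like cells the lowest library had 0.361%, under the highest T-like library at 0.94%. Over all these libraries, unthinned, 332 of 3168 cDC1-like and 13 of 9253 T-like cells held a *Tlr13* UMI. In pDC-like and LSEC-like cells the mean lay under 1 CPM.

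**Figure D2:**
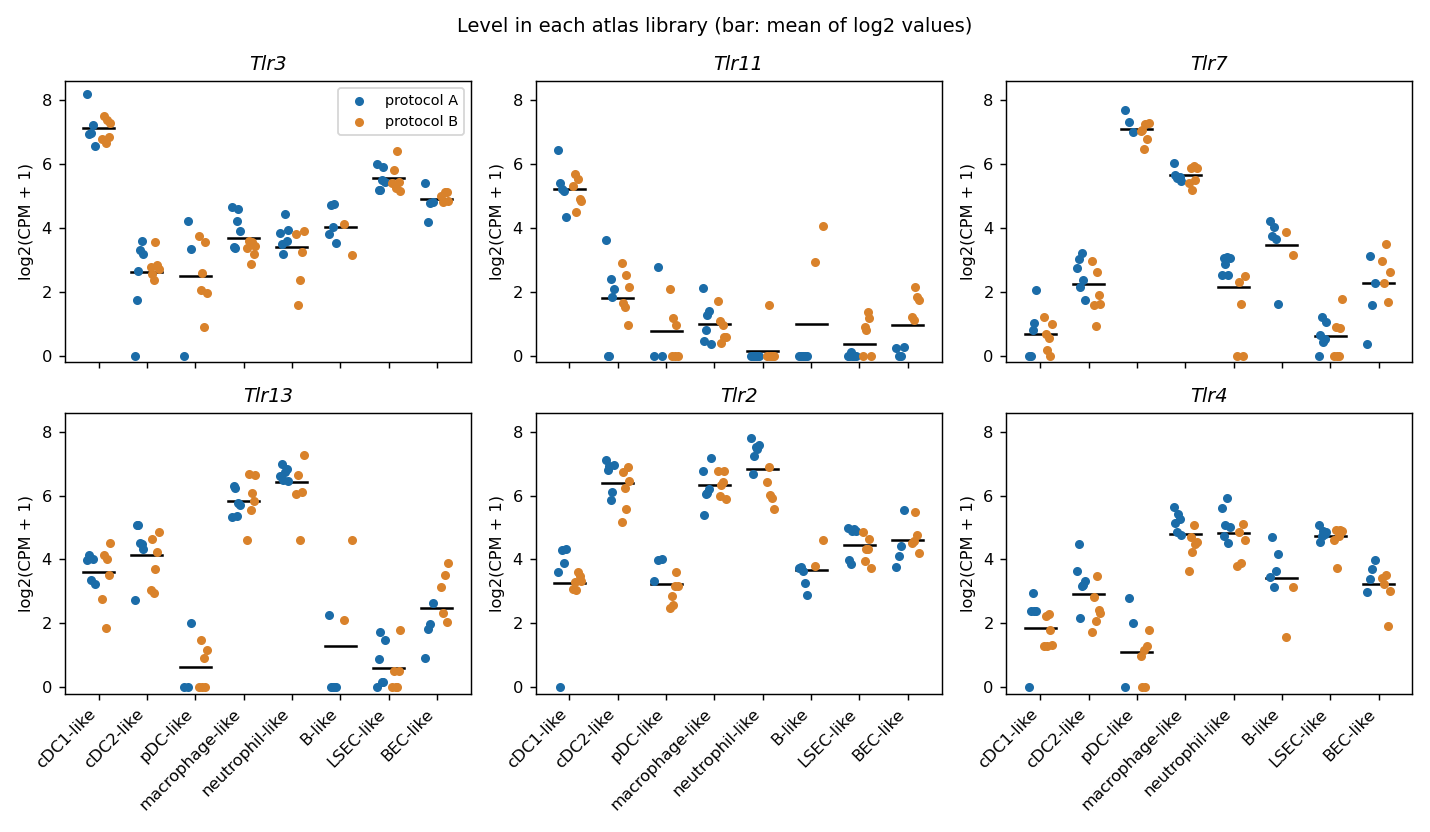
Level of 6 receptor genes as log2(CPM + 1) (vertical axis, log scale) in each atlas library with at least 20 cells of the type (1 point each, blue protocol A, orange protocol B; bars are means of the log2 values). Every cDC1-like library lies above all others for *Tlr11*, and every pDC-like library above the macrophage-like ones for *Tlr7*, whereas neutrophil-like, macrophage-like and cDC2-like libraries overlap for *Tlr2*.

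Genomic sequence upstream of the annotated start is shown for *Tlr11*, whose leading type stood above every library of the others, and for 3 receptors with other leading types, *Tlr2*, *Tlr9* and *Tlr13*. RefSeq windows of 250 bases before the start (GRCm38.p6) were found for 7 of the 9 genes, and only bases outside annotated exons are printed. Positions count back from the RefSeq start, which for *Tlr2* and *Tlr13* lies inside the GENCODE gene. Capitals mark matches on either strand to AAANNGAAA (reverse TTTCNNTTT), a paired element bound by interferon regulatory factors, or to GAGGAAG (reverse CTTCCTC), a core bound by ETS factors such as PU.1, motifs that were picked after the sequences had been read.
Tlr2 (chr3:83841768-83841858, minus strand): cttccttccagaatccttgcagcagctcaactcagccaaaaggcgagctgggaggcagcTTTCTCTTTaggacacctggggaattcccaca
Tlr11 (chr14:50357664-50357913, plus strand): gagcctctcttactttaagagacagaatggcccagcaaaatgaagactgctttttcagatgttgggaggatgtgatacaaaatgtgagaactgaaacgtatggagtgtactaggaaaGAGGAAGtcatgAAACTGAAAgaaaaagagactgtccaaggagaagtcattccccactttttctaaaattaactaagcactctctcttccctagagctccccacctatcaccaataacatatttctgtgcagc
Tlr9 (chr9:106222348-106222597, plus strand): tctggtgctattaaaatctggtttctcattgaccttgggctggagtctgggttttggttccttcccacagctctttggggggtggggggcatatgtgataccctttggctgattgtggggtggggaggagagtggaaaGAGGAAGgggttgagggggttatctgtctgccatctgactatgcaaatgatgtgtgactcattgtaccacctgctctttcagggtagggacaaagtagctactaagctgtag
Tlr13 (chrX:106143025-106143203, plus strand): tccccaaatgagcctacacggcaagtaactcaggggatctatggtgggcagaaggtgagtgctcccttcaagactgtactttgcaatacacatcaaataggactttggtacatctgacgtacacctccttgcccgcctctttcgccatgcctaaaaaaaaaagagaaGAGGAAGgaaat
The *Tlr2* window holds the first motif 191 to 183 bases before the start, and that of *Tlr11* holds both, 121 to 113 and 133 to 127 bases before it. *Tlr9* and *Tlr13* hold the second motif, 112 to 106 and 83 to 77 bases before their starts, and *Tlr1*, not printed, holds it 23 to 17 bases before its start. The RefSeq window of *Tlr3* also holds the first motif but lies within the GENCODE gene, and is not shown. The motifs thus occur in genes with different leading types. Among 32851 windows of 250 bases, 9.37% hold the first motif, 10.6% the second and 0.883% both, so that a match is common and describes letters only.

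*Tlr2* (chr3:83836272-83841767, minus strand) recognises bacterial lipoproteins as a partner of *Tlr1* or *Tlr6*. It was spread over 3 myeloid types: neutrophil-like cells with 46.4 to 221 CPM (median 118, mean 126 ± 60.3, SD, n = 11), cDC2-like cells with 35 to 137 CPM (median 96, mean 90.2 ± 33.5, n = 12) and macrophage-like cells with 40.6 to 145 CPM (median 75.8, mean 83.1 ± 28.9, n = 12). These types overlapped and their neighbours did not differ (exact permutation test, adjusted p = 0.492 and 0.823), while macrophage-like cells exceeded BEC-like cells, at 25.4 ± 11.7 CPM, in 9 of 9 libraries (adjusted p = 0.0246). The log2 fold changes were 2.58 (SE 0.152), 2.01 (SE 0.139) and 1.82 (SE 0.131), all called by edgeR. By protocol, A then B, cDC2-like cells averaged 103 and 77.7 CPM and macrophage-like cells 83.1 and 83 CPM. Neutrophil-like cells averaged 170 CPM over 6 libraries of protocol A and 74.3 CPM over 5 of protocol B, and so led in protocol A only. Their 5 clusters ran from 88 CPM in an *Slfn4*- and *Csf3r*-led cluster to 292 CPM in one of 989 cells led by *Acod1* and *Il1f9* and 413 CPM in one of 32 cells led by *Cxcl3*, and cDC2-like clusters from 30.1 CPM (*Sirpb1a*, *Mgl2*) to 156 CPM (*Ly6i*, *Ccl17*). Monocyte-like cells held 141 ± 55.2 CPM (SD, n = 7).

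*Tlr1* (chr5:64924679-64933563, minus strand), which pairs with *Tlr2* for triacylated lipopeptides, had a different order. It was highest in macrophage-like cells in 10 of 12 libraries, with 25.5 CPM (D0 B), a median of 34.2 and at most 68.5 CPM (D3 B), mean 36 ± 11.6 (SD, n = 12). *Tlr1* was low in neutrophil-like cells at 2.06 ± 2 CPM (n = 11), where *Tlr2* had its highest mean over all libraries. B-like cells held 4.32 to 47.2 CPM (20.3 ± 13.9, n = 7) and cDC2-like cells 3.49 to 45.7 CPM (16.3 ± 11, n = 12), both overlapping the macrophage-like range. The log2 fold changes were 3.62 (SE 0.14, adjusted p = 2.81e-36, edgeR) in macrophage-like, 2.19 (SE 0.172) in cDC2-like and 2.10 (SE 0.338) in B-like cells, against -0.85 (SE 0.351) in neutrophil-like cells. Of the neighbours in this order, cDC2-like cells exceeded BEC-like cells in 9 of 9 libraries (exact permutation test, adjusted p = 0.0246), and macrophage-like against B-like cells had an adjusted p of 0.155 (higher in 6 of 7), in a pair too small to pass.

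*Tlr4* (chr4:66827584-66930284, plus strand), the receptor for lipopolysaccharide with its co-receptors *Ly96* and *Cd14*, was shared by neutrophil-like cells (13 to 59.4 CPM, median 28, mean 30.2 ± 13.8, SD, n = 11), macrophage-like cells (11.6 to 48.5 CPM, median 27.1, mean 28.9 ± 10.5, n = 12) and LSEC-like cells (12.4 to 32.7 CPM, median 27.4, mean 26 ± 5.13, n = 12). Their ranges overlapped, and neighbours did not differ (exact permutation test, adjusted p = 0.823 and 0.703). All were called higher than the other types, with log2 fold changes of 1.97 (SE 0.159), 1.98 (SE 0.119) and 1.51 (SE 0.13, edgeR). LSEC-like clusters lay close together, from 21.3 to 29.6 CPM. Free RNA held 22 CPM over the libraries of protocol A and 4.18 CPM over those of protocol B, and LSEC-like cells 27.4 and 24.7 CPM. Among dendritic cells *Tlr4* was low, at 7.65 ± 5.22 CPM in cDC2-like and 3.07 ± 1.9 CPM in cDC1-like cells, a difference in 10 of 11 libraries (exact permutation test, adjusted p = 0.0246).

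*Tlr5* (chr1:182954788-182976044, plus strand), the flagellin receptor, was near the limit of detection with 510 UMIs in the 8 types. Neutrophil-like cells held 2.75 ± 2.71 CPM (SD, n = 11; 0 to 8.46, with 0 UMIs in 3 libraries), BEC-like cells 2.28 ± 1.27 CPM (n = 9; 0.813 to 5.02) and pDC-like cells 1.45 ± 1.82 CPM (n = 9). Neutrophil-like cells, first by the mean, lay above BEC-like cells in only 2 of the 8 libraries that hold both, and none of the 7 pairs of neighbours passed (exact permutation test). The log2 fold changes were 1.86 (SE 0.399) in neutrophil-like, 1.43 (SE 0.283) in BEC-like, 1.30 (SE 0.467) in pDC-like, 1.02 (SE 0.319) in cDC2-like and 0.87 (SE 0.278) in macrophage-like cells (edgeR). The call in pDC-like cells rested on 20 UMIs and was lost without D3 B (0.93, adjusted p = 0.112, edgeR) or D9 B (0.87, adjusted p = 0.181). The call in macrophage-like cells was lost with the marker gate (adjusted p = 0.089, edgeR) and in protocol B alone (0.0712), and that in neutrophil-like cells in protocol B alone (0.86, adjusted p = 0.568). In protocol A alone, and with at least 3000 UMIs per cell, *Tlr5* was not tested in any type. In monocyte-like cells, which are not among the 8 types, the level was 7.76 ± 2.46 CPM (3.86 to 10.3, n = 7, 58 UMIs), above every BEC-like library in all but the lowest one, D0 B.

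Within macrophage-like cells, 3942 formed Kupffer-like clusters and 7766 others, and several receptors divided them. *Tlr4* was higher in Kupffer-like cells in 12 of 12 atlas libraries (mean 38.2 against 23.7 CPM), *Tlr3* also in 12 of 12 (19.4 against 9.17) and *Tlr7* in 7 of 12 (55.7 against 49.2). *Tlr2* was lower in Kupffer-like cells in 12 of 12 (50.3 against 104 CPM), *Tlr5* in 12 of 12 (0.0506 against 1.85), *Tlr9* in 11 of 12 (0.622 against 2.28), *Tlr13* in 9 of 12 (53.1 against 65.7) and *Tlr1* in 8 of 12 (31.8 against 38.1). These are counts of libraries with no test. Both *Tlr3* means lay below free RNA at 21 CPM. At progression summed cDC1 markers had a median of 404 CPM in Kupffer-like and 212 CPM in other macrophage-like cells. For summed LSEC markers the medians were 1490 and 1070 CPM. The part of cDC1 and LSEC transcripts in the *Tlr3* values was not tested. By cluster, *Tlr13* was highest in 2 clusters led by *Gpnmb*, at 103 and 111 CPM, and lowest in a Kupffer-like cluster led by *Vsig4* and *Clec4f* at 17.7 CPM. *Tlr4* was highest, at 56.8 CPM, in a Kupffer-like cluster led by *Gbp2b*. *Tlr2* reached 224 CPM in a cluster of 1222 cells led by *Fcrls* and *Ms4a7* and 175 CPM in one of 197 cells led by *H2-M2* and *Mmp13*.

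**Figure D3:**
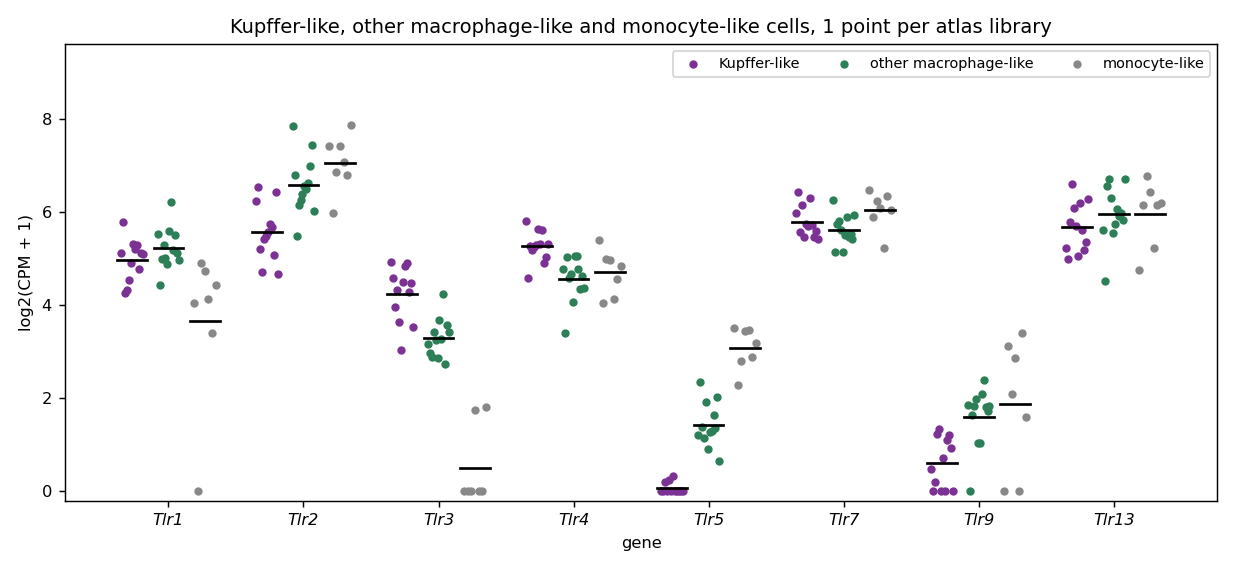
Level as log2(CPM + 1) (vertical axis, log scale) of 8 receptor genes (horizontal axis) in Kupffer-like (purple), other macrophage-like (green) and monocyte-like cells (grey), 1 point per atlas library with at least 20 cells, bars at the mean of the log2 values. Kupffer-like points lie higher for *Tlr4* (mean 38.2 against 23.7 CPM) and lower for *Tlr2* (50.3 against 104 CPM) and *Tlr5* (0.0506 against 1.85 CPM).

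To see which genes share these patterns, Pearson correlations of log2(CPM + 1) were taken over 83 sums of a type and library among 10236 genes, as a description: the sums share libraries and depth, and most of the variation lies between types. *Tlr11* was most like *Gpr141b* (r = 0.896), the cDC1 marker *Xcr1* (0.893) and *Gcsam* (0.878). *Tlr13* was most like *Lpcat2* (0.88), *Tgfbi* (0.869) and *Msrb1* (0.865). *Tlr7* was most like *Atp13a2* (0.87), *Lair1* (0.836) and *Pltp* (0.832), and *Tlr2* was most like *Sirpb1c* (0.83), *Pilrb2* (0.827) and the integrin gene *Itgam* (0.825). For *Tlr4* they were the iron exporter *Slc40a1* (0.843), *Fgd4* (0.842) and *Cd84* (0.833). For *Tlr1* they were the Fc receptor *Fcgr1* (0.83), *Abca9* (0.804) and the chemokine receptor *Cx3cr1* (0.801). For *Tlr3* they were *Lrrc3* (0.797), *Trim35* (0.797) and *Homer2* (0.766). The sparse genes gave lower values, *Tlr9* with *Zmiz2* (0.769), *Slamf9* (0.768) and *Prss30* (0.76) and *Tlr5* with *Ston2* (0.611), *Rhov* (0.594) and *Hnmt* (0.592). Between receptors the highest value was 0.68, of *Tlr2* with *Tlr13*, and that of *Tlr3* with *Tlr11* was 0.515.

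The pathway around the receptors was read from 42 further genes, of which 41 were tested between types. Beside each count stands the share of all genes called in the same direction. In macrophage-like cells 27 (65.9% beside 30.2%) were called higher and 4 (9.76% beside 25.8%) lower, with a median log2 fold change of 0.42 beside -0.02 over all genes, and the largest were *Tlr8* (5.52, SE 0.189), an endosomal receptor, *Pld3* (3.80, SE 0.118), a nuclease of nucleic acid ligands, and *Cd14* (3.11, SE 0.15). All 7 tested genes of endosomal trafficking and nucleic acid supply and 5 of 6 of ligand binding and co-receptors were higher there. In cDC2-like cells 23 (56.1% beside 28.5%) were higher and 10 (24.4% beside 29.9%) lower (median 0.63 beside -0.07), led by the IL-33 receptor *Il1rl1*, listed among the inhibitors, (3.50, SE 0.306), the adaptor *Ticam2* (3.07, SE 0.173) and *Tlr8* (2.16, SE 0.3). In neutrophil-like cells 21 (51.2% beside 28%) were higher and 13 (31.7% beside 32.5%) lower (median 0.36 beside -0.09), among them *Tlr6* (3.48, SE 0.181), *Cd14* (3.20, SE 0.159) and the inhibitor *Irak3* (3.07, SE 0.149), and 6 of 7 inhibitors were higher.

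pDC-like cells had 12 pathway genes (29.3%) higher, near the 26.8% of all genes, and 16 (39% beside 30.4%) lower (median -0.20 beside -0.08). Of the 7 genes of endosomal trafficking and nucleic acid supply 6 were higher there, with the nuclease *Pld4* (3.65, SE 0.158) first. *Tlr8* (-3.87, SE 1.03) and *Irak3* (-3.75, SE 0.368) were lower. In cDC1-like cells 14 (34.1% beside 28.4%) were higher and 20 (48.8% beside 35.4%) lower (median -0.31 beside -0.15), with *Tlr12* (2.92, SE 0.204), which binds profilin like *Tlr11*, higher and *Tlr8* (-3.44, SE 0.841) and *Irak3* (-3.06, SE 0.266) lower. LSEC-like cells had 15 (36.6% beside 40.4%) higher and 23 (56.1% beside 35.6%) lower (median -0.46 beside 0.02), with *Pld4* (-4.91, SE 0.253), *Cd180* (-4.90, SE 0.283) and *Ly86* (-4.78, SE 0.244) lowest. BEC-like cells had 9 (22% beside 42%) higher and 27 (65.9% beside 32.2%) lower (median -0.75 beside 0.09), with *Rel* (-2.07, SE 0.166), *Cd180* (-1.96, SE 0.231) and *Unc93b1* (-1.93, SE 0.135) lowest. B-like cells, in 7 libraries, had 6 (14.6%) higher, at the 14.4% of all genes, and 9 (22% beside 17.7%) lower (median -0.06 beside -0.12), with *Irak3* (2.09, SE 0.222) and *Cd180* (1.43, SE 0.266) higher and *Tlr12* (-1.47, SE 0.539) lower.

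**Figure D4:**
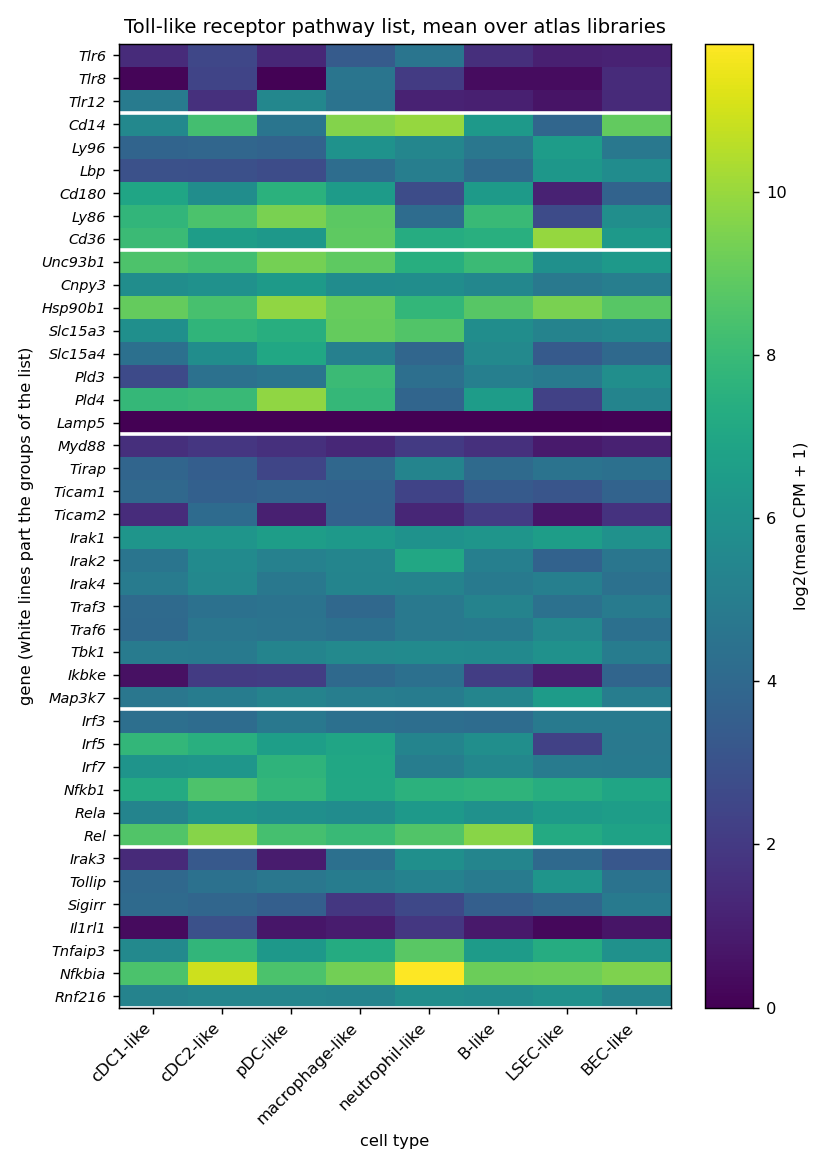
Mean level over atlas libraries, as log2(mean CPM + 1), of the 42 pathway genes (vertical axis, groups parted by white lines) in the 8 cell types (horizontal axis), to be read along 1 gene at a time. Genes of endosomal trafficking such as *Pld4* and *Unc93b1* are bright in pDC-like cells, *Cd14* in neutrophil-like and macrophage-like cells, and *Tlr12* in cDC1-like, pDC-like and macrophage-like cells.

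To ask which receptors changed on DDC diet, onset and progression together were compared with steady state within each type, with the isolation protocol as a term. Of 43 pairs of receptor and type with enough counts, 0 were called by edgeR and 11 had an unadjusted p under 0.05, while DESeq2 called 4 (*Tlr13* in macrophage-like cells and *Tlr1*, *Tlr2* and *Tlr7* in BEC-like cells). For the unadjusted p and for DESeq2 the share of all genes is not given, so that those counts do not set the receptors apart. By edgeR, macrophage-like cells, with 0 of 9 receptors called, had 6.32% of all genes called in either direction. No receptor was called in cDC1-like cells (0 of 7, where 4.77% of all genes were), cDC2-like (0 of 8, 3.69%) or pDC-like cells (0 of 4, 1.1%). None was called in neutrophil-like (0 of 4, 0.374%), LSEC-like (0 of 3, 0.102%) or BEC-like cells (0 of 8, 1.48%). No receptor could be tested in B-like cells, where 0.136% of all genes were called. Steady state rests on 2 libraries, of which D0 A held 27 cells of the cDC1-like type, 25 of the cDC2-like and 21 of the pDC-like, and for BEC-like cells on D0 A alone.

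*Tlr13* in macrophage-like cells came closest in this comparison. It stood at 38.9 CPM (D0 A) and 23.2 CPM (D0 B) in steady state. During onset it stood at 40.4 and 53.5 CPM (D3 A and D5 A) and 66.6 and 56.3 CPM (D3 B and D5 B). During progression it stood at 50.7, 77.6 and 74.6 CPM (D9 A, D19 A and D25 A) and 99.6, 102 and 45.9 CPM (D9 B, D19 B and D25 B). Both steady-state libraries lay below all 10 DDC libraries, and within each protocol D0 was the lowest. The log2 fold change was 1.02 (SE 0.294, adjusted p = 0.0536, edgeR), with a mean of 31 CPM in steady-state, 54.2 in onset and 75.1 CPM in progression libraries. This value lies next to the threshold, and small changes moved it across. When the cells were clustered again from 4 other random seeds, a check added after seeing the data, the log2 fold change was 1.06 to 1.08 and the adjusted p 0.0397 to 0.0434 (edgeR), so that *Tlr13* was called in all 4. It was also called by DESeq2 (adjusted p = 0.0127), and by edgeR with no filter on low counts (0.00124), with a marker gate in place of clusters (0.0404), without mixed barcodes (0.0183), without D9 A (0.0347) or without D25 B (0.0197). It was not called without TMM scaling (0.12), with at least 3000 UMIs per cell (0.0699) or without the protocol term (0.103). The other 10 fits that left out 1 library gave an adjusted p of 0.0611 to 0.213 (edgeR), the highest without D0 B.

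The share of Kupffer-like cells differed between libraries, so the subsets were also taken apart, a comparison chosen after these values were known. Kupffer-like cells made up 76.6% of macrophage-like cells in D0 A and 25.9% in D25 A, but 14.9% to 21.1% in the atlas libraries of protocol B. In Kupffer-like cells *Tlr13* averaged 33.5 CPM in the steady-state, 46.7 in the onset and 64 in the progression libraries, and 34.7, 59.7 and 79.9 CPM in other macrophage-like cells. Neither subset passed on its own (log2 fold change 0.65, SE 0.328, adjusted p = 0.311, and 1.04, SE 0.334, adjusted p = 0.0861, edgeR). Free RNA held 5.66, 12.2 and 23.4 CPM of *Tlr13* at the 3 stages. Summed neutrophil markers in macrophage-like cells ran from 362 to 526 CPM in the steady-state, 35.4 to 123 in the onset and 60.4 to 480 in the progression libraries, with 5 to 10 of 10 markers detected. Summed monocyte markers, 7 or 8 of 8 detected, ran from 337 to 373 CPM in the steady-state, 411 to 784 in the onset and 493 to 803 in the progression libraries, so that both D0 libraries lay below all diet libraries for these too. In other macrophage-like cells the same sums were 398 to 899, 704 to 861 and 524 to 1010 CPM and overlapped, and monocyte-like cells held 66.9 CPM of *Tlr13*. The part of free RNA and of monocyte-like cells in this result was not tested. In neutrophil-like cells *Tlr13* averaged 80.6, 95.9 and 96.6 CPM at the 3 stages (log2 fold change 0.06, SE 0.455, adjusted p = 0.986, edgeR), and in cDC2-like cells 6.47, 18.3 and 24 CPM (1.03, SE 0.493, adjusted p = 0.233).

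**Figure D5:**
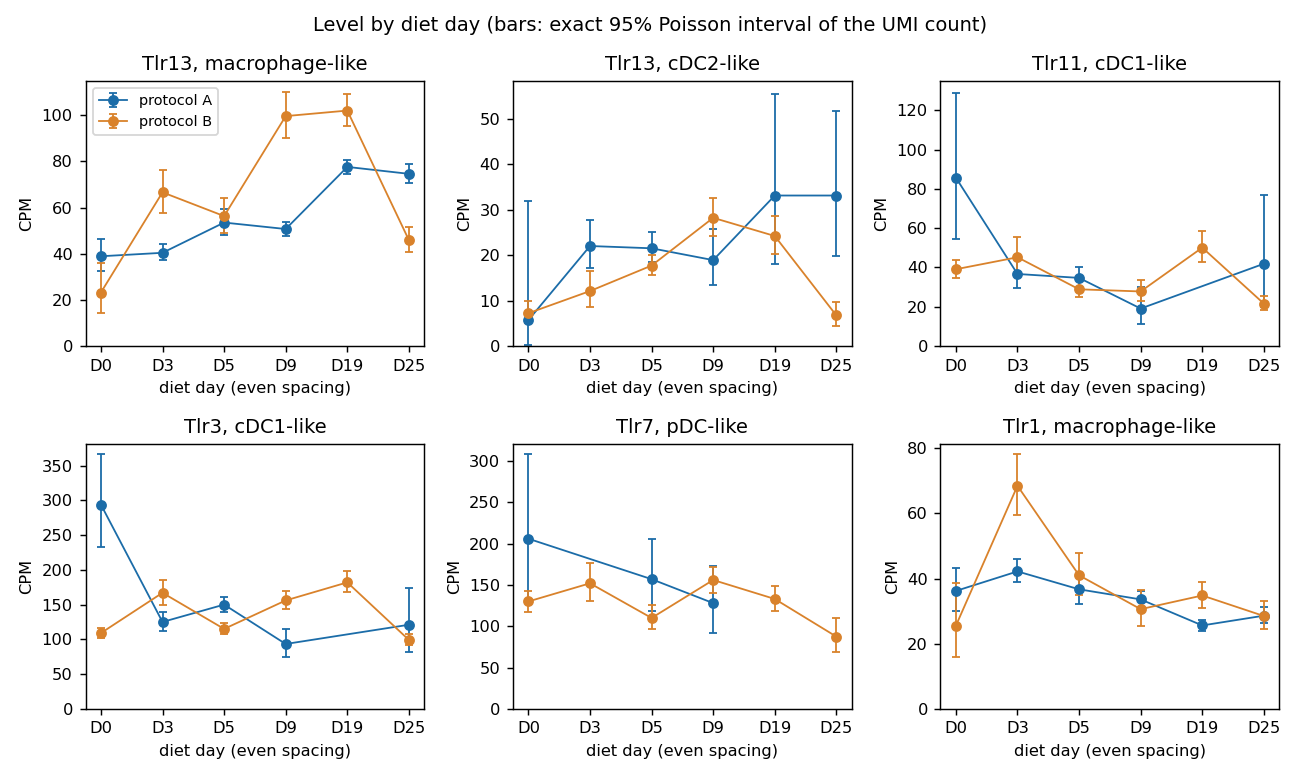
Level in CPM (vertical axis, from 0) by diet day (horizontal axis, evenly spaced) of 6 pairs of receptor and type in libraries with at least 20 cells, blue protocol A and orange protocol B, with exact 95% Poisson intervals for counting error. *Tlr13* in macrophage-like cells is lowest at D0 in both protocols (38.9 and 23.2 CPM), and *Tlr1* in macrophage-like cells is highest at D3 in both (42.2 and 68.5 CPM).

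The other receptors did not pass adjustment either. *Tlr11* in macrophage-like cells, with 93 UMIs, was highest in D0 A at 3.32 CPM. Free RNA averaged 4.4 CPM over the atlas libraries and 1.77 CPM over those of protocol A, to which D0 A belongs. The log2 fold change of *Tlr11* in macrophage-like cells was -1.73 (SE 0.642, adjusted p = 0.13, edgeR). In other macrophage-like cells alone it was -3.06 (SE 0.931, adjusted p = 0.0716, edgeR). *Tlr11* in cDC1-like cells was 85.7 and 39.1 CPM in steady state, 28.9 to 45.2 during onset and 19.1 to 50.1 during progression, so that D0 B overlapped the diet libraries (log2 fold change -0.92, SE 0.294, adjusted p = 0.08, edgeR). It was called without D19 B (-1.05, adjusted p = 0.042, edgeR) and with no filter on low counts (-0.92, adjusted p = 0.0317). *Tlr11* in cDC2-like cells was 11.4 CPM (2 UMIs) and 6.45 CPM in steady state and at most 4.83 CPM on the diet, with no overlap (-1.78, SE 0.611, adjusted p = 0.103, edgeR), and it was called with no filter on low counts (adjusted p = 0.0134) and with the marker gate (0.0356). Free RNA of D0 B, which held 1003 cDC1-like cells, had 16.2 CPM of *Tlr11*, the highest of the atlas libraries and above the 6.45 CPM. The part of free RNA in this difference was not tested. *Tlr7* in cDC2-like cells was 5.71 CPM (1 UMI) and 6.84 CPM in steady state and 0.928 to 8.35 CPM on the diet. The log2 fold change was -1.56 (SE 0.488, adjusted p = 0.0776, edgeR). *Tlr7* was called there with no filter on low counts (adjusted p = 0.026, edgeR) and with 1 of the 4 other clustering seeds (0.0365). Without D0 A, or with at least 50 cells, which also drops D0 A (25 cells), D0 B was the only steady-state library. Each of these fits gave a log2 fold change of -1.83. Free RNA averaged 18.9 CPM of *Tlr7*, and its part was not tested. *Tlr9* in pDC-like cells was 0 and 2.31 CPM in steady state, 5.94 to 12.4 during onset and 3.04 to 15.4 during progression, with no overlap and few UMIs (1.79, SE 0.677, adjusted p = 0.157). *Tlr3* in cDC1-like cells was 294 and 109 CPM in steady state and 93.3 to 182 CPM on the diet (-0.60, SE 0.254, adjusted p = 0.179), and *Tlr7* in pDC-like cells 206 and 130 CPM against 87.4 to 157 CPM (-0.40, SE 0.261, adjusted p = 0.387). *Tlr3* in pDC-like cells was 0 CPM (21 cells) and 12.5 CPM in steady state and 0.882 to 17.8 CPM on the diet (-1.28, SE 0.672, adjusted p = 0.282, edgeR), but was called without mixed barcodes (-3.52, adjusted p = 0.00605).

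BEC-like cells held little *Tlr7*, *Tlr1* and *Tlr13* at steady state, where they had 1 library, so that the spread in these fits comes from the diet libraries alone and the lone library is assumed to vary like them. *Tlr7* was 0.289 CPM (3 UMIs of 792 cells) in D0 A and 2.03 to 10.2 CPM in 8 diet libraries (log2 fold change 3.94, SE 1.18, adjusted p = 0.111, edgeR), *Tlr1* 0.772 CPM and 1.72 to 14.6 CPM (2.95, SE 0.895, adjusted p = 0.115), and *Tlr2* 12.7 CPM and 16.3 to 45.5 CPM (1.81, SE 0.593, adjusted p = 0.134). *Tlr13* was 0.868 CPM and 2.58 to 13.9 CPM (2.21, SE 0.977, adjusted p = 0.23). D0 A was highest for *Tlr5* (5.02 CPM, log2 fold change -1.48) and *Tlr3* (41.7 CPM, -0.37). It was lowest for *Tlr7*, *Tlr1*, *Tlr2* and *Tlr13*. With no filter on low counts edgeR called all 4, with an adjusted p of 0.00114, 0.00529, 0.00115 and 0.0388, again against 1 library. All 12 macrophage markers were detected in BEC-like cells of each library, with a summed level of 571 CPM in D0 A, 913 to 1760 CPM at onset and 1010 to 2540 CPM at progression, and 65.2% of BEC-like barcodes held 3 or more markers of another lineage. Summed hepatocyte markers were 6150 CPM in D0 A, 1920 to 2830 CPM at onset and 1110 to 1830 CPM at progression. D0 A thus stood apart from the diet libraries in these too. The part of macrophage and hepatocyte transcripts in these values was not tested.

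Progression was then set against onset, which does not rest on the steady-state libraries. No receptor was called in 43 tested pairs by edgeR, and DESeq2 called 0. An unadjusted edgeR p under 0.05 was found in 8 pairs, again without the share of all genes. Few genes were called at all: 0.291% in macrophage-like (0 of 9 receptors), 0.0928% in LSEC-like (0 of 3), 0.0117% in neutrophil-like (0 of 4), 0.00908% in cDC1-like (0 of 7) and 0.187% in B-like cells (no receptor tested). The share was 0% in cDC2-like (0 of 8), 0% in pDC-like (0 of 4) and 0% in BEC-like cells (0 of 8). The smallest edgeR p was that of *Tlr1* in macrophage-like cells, at 36.7 to 68.5 CPM during onset and 25.6 to 34.8 CPM during progression, which did not overlap (log2 fold change -0.58, SE 0.162, adjusted p = 0.132, edgeR). Steady state held 36.2 CPM in D0 A, between both ranges, and 25.5 CPM in D0 B, just under the progression range. The value passed without mixed barcodes (-0.71, adjusted p = 0.0493, edgeR) and with the marker gate (-0.81, adjusted p = 0.0391). For DDC diet against steady state, *Tlr1* in macrophage-like cells was called with the marker gate (1.01, adjusted p = 0.0404, edgeR). With the clusters it was not (0.305, SE 0.227, adjusted p = 0.479, edgeR). *Tlr2* in cDC2-like cells was called when D5 B was left out (1.03, adjusted p = 0.0474, edgeR), against 0.46 with all libraries (SE 0.282, adjusted p = 0.741).

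The 42 pathway genes were read in the comparison of DDC diet with steady state. In macrophage-like cells 2 of 41 rose and 7 fell, 22% in all beside 6.32% of all genes (median log2 fold change -0.14 beside 0.04 over all genes). *Tlr12* fell most there, from 66.6 and 61.5 CPM at steady state to 7.4 to 25.1 CPM on the diet (-2.16, SE 0.258, adjusted p = 0.000565, edgeR), with no overlap, and *Nfkbia*, an inhibitor of NF-kappaB, fell by 1.79 on the log2 scale (SE 0.413, adjusted p = 0.0203). The scavenger receptor *Cd36* rose from 237 and 77.7 CPM to 287 to 830 CPM (1.87, SE 0.297, adjusted p = 0.00303), again with no overlap. Monocyte markers and the Kupffer-like share moved in the same cells, as given above for *Tlr13*. In Kupffer-like cells *Tlr12* was 67.2 and 115 CPM at steady state and 25.9 to 85.3 on the diet, which overlapped, and in other macrophage-like cells 64.7 and 51.9 against 3.18 to 7.3 CPM, which did not. *Cd36* was apart in both, at 272 and 130 against 475 to 1130 CPM and at 118 and 68.3 against 198 to 848 CPM. *Nfkbia* overlapped in Kupffer-like cells (765 and 1570 against 329 to 1510 CPM) and not in the others (962 and 2160 against 249 to 766 CPM). In cDC1-like cells 3 of 37 fell and 0 rose, 8.11% beside 4.77% of all genes (median 0.05 beside -0.01): *Tlr12* (-1.92, SE 0.39, adjusted p = 0.0137), the interferon regulatory factor *Irf7* (-1.44, SE 0.291, adjusted p = 0.0134) and the nuclease *Pld4* (-0.83, SE 0.194, adjusted p = 0.0257).

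In cDC2-like cells 3 of 40 fell and 1 rose, 10% beside 3.69% of all genes (median -0.01 beside 0.01), with the kinase *Ikbke* (-2.79, SE 0.708, adjusted p = 0.0377, edgeR) and *Irf7* (-2.15, SE 0.447, adjusted p = 0.0165) lower and *Cd36* (1.98, SE 0.394, adjusted p = 0.0133) higher. In pDC-like cells 1 of 34 fell, 2.94% beside 1.1% of all genes (median 6.09e-05 beside -0.01), *Irf7*, from 429 and 490 CPM to 72.9 to 199 CPM (-2.08, SE 0.243, adjusted p = 0.00383), and the groups did not overlap. None of the list was called in neutrophil-like, B-like, LSEC-like or BEC-like cells, with medians of 0.12 beside 0.02, 0.04 beside 0.01, 0.08 beside 0.02 and 0.45 beside 0.04 over all genes, and none in any type between progression and onset.

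The recovery library was set beside D19 B, of the same protocol, with exact 95% Poisson intervals of the UMI counts, which cover counting error only, and no test. In 10 of 63 pairs of receptor and type with at least 20 cells in both libraries the intervals were apart. The share of all genes with intervals apart was not counted, so that this number does not set the receptors apart from other genes. *Tlr13* in macrophage-like cells was 48.1 CPM (40.6 to 56.7) in STOP and 102 CPM (95.5 to 109) in D19 B, but lay within the 45.9 to 102 CPM of the 3 progression libraries of protocol B. *Tlr13* (10.2 against 16.6 CPM) and *Tlr9* (1.42 against 4.61 CPM) in cDC1-like cells and *Tlr2* in cDC2-like cells (81.9 against 105 CPM) were lower in STOP too, each inside the range of those 3 libraries.

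The other 6 pairs were higher in STOP and above all 3 progression libraries of protocol B. *Tlr2* in neutrophil-like cells was 238 CPM (203 to 278) against 118 (89.9 to 152). The clusters were looked at after these values were seen, and the cells compared lay in different ones: 70.2% of STOP neutrophil-like cells fell in the *Cxcl3*-led cluster, which held 0 cells of D19 B, and 96.4% of those of D19 B in a *Siglecf*-led cluster, which held 9.69% of STOP. In that *Siglecf*-led cluster *Tlr2* was 86.1 CPM in STOP and 98.3 CPM in D19 B, and without the *Cxcl3*-led cluster STOP stood at 139 CPM (96.7 to 193), an interval that overlapped that of D19 B. In LSEC-like cells *Tlr2* was 27.2 (21.9 to 33.4) against 14.5 (10.1 to 20.3), with 59.3% of the cells of STOP and 26.2% of those of D19 B in an *Adamts4*-led cluster. In that cluster *Tlr2* was 25.8 against 22.9 CPM. In the other LSEC-like cells it was 29.8 CPM (20.7 to 41.7) against 11 (6.51 to 17.4), and the intervals stayed apart. *Tlr3* was higher in macrophage-like cells (24.4 against 11.2 CPM), in cDC2-like cells (11.4 against 4.88 CPM) and in BEC-like cells, where it was 71 CPM (66.2 to 75.9) against 30.7 (27.5 to 34.2). Of macrophage-like cells 30.8% were Kupffer-like in STOP and 15% in D19 B, and *Tlr3* was 29.8 CPM (19.4 to 43.6) against 19.1 (12.7 to 27.5) in Kupffer-like cells, where the intervals overlap, and 22.2 (16.2 to 29.6) against 9.66 (7.55 to 12.2) in the others, where they do not. Among cDC2-like clusters it was 36.5 against 6.72 CPM in one led by *Ccl22*, which held 13.2% and 5.3% of the cells. In cDC2-like cells outside that cluster *Tlr3* was 4.82 CPM (2.49 to 8.41) in STOP and 4.72 (3.03 to 7.03) in D19 B, where the intervals overlap. LSEC markers, all 8 detected, summed to 1980 CPM in macrophage-like and 2080 CPM in cDC2-like cells of STOP, against 799 and 664 CPM in D19 B, and cDC1 markers to 404 and 382 against 336 and 308 CPM. Their part in these values was not tested. *Tlr11* in BEC-like cells was 12.8 CPM (10.9 to 15) against 1.32 (0.721 to 2.21). In a cluster led by *Cldn4* and *Cxcl5*, with 41.9% of the BEC-like cells of STOP and 26.5% of those of D19 B, *Tlr3* was 91 against 32.7 CPM and *Tlr11* 17.9 against 3.45 CPM, while a *Ces1d*-led cluster (25.6% and 4.84%) held 19.7 and 18.5 CPM of *Tlr3*. In BEC-like cells outside the *Cldn4*-led cluster, *Tlr3* was 45.1 CPM (39.5 to 51.3) against 29.6 (25.7 to 34). *Tlr11* was 6.23 CPM (4.26 to 8.79) against 0.146 (0.0037 to 0.814) there, and the intervals of both genes stayed apart. STOP had 1079 cDC1-like cells, the most of any library, 28.6 CPM of *Tlr3* and 7.11 CPM of *Tlr11* in free RNA (11.7 and 4.89 CPM in D19 B), and cDC1 markers, all 8 detected, summed to 991 CPM in its BEC-like cells against 283 CPM in D19 B and 591 CPM in D0 A. The part of cDC1 transcripts in the values of BEC-like cells was not tested.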

How the data were processed

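Droplet-based 3' scRNA-seq was measured in 13 mouse liver libraries. Per the submitters' processing notes the authors used kallisto and the genome build GRCm38, and the deposited values are raw UMI counts by gene and barcode. Groups came from the sample labels, and the 9 receptors, the marker lists and the 42 pathway genes were chosen with earlier results of these data known.

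A barcode counted as a cell from 1500 UMIs on, and libraries held 29307190 to 108602421 UMIs. Cells were clustered on 2000 variable genes without the receptors and pathway genes, from 1 random seed (scikit-learn 1.9.0, Leiden in igraph 0.11.9, resolution 1.5, then 1 within dendritic and myeloid cells). A cluster was named where at least 3 markers of a type were present in at least 10% of its cells and at least 2-fold above the rest. It stayed unnamed where markers of another type came close. Exempt were macrophage with monocyte, T with NK, and LSEC with other endothelial markers. There the cluster could take the type with more markers among its leading genes. This rule was set after the clusters had been seen. Doublets were not called. Named barcodes with at least 3 markers of another lineage numbered 16903 and were left out in an alternative. UMIs were summed per type and library with at least 20 cells, so that the library was the replicate, and tested with edgeR 4.0.16 (TMM, quasi-likelihood, R 4.3.3) with Benjamini-Hochberg adjustment over all tested genes and a threshold of 0.05: each type against the mean of the other 7 with the library as a block, and DDC against steady state and progression against onset within a type with the protocol as a term. The mean of the other 7 types was taken over log2 levels. Neighbouring types were compared by two-sided exact permutation tests (scipy 1.17.1) on log2(CPM + 1), adjusted over 63 pairs. Every receptor was described, and of the pathway list the 3 called genes with the largest change in each type were named. Poisson intervals (95%) cover counting error only, and a count of 0 was read as at most 3 UMIs.

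Alternatives were no filter on low counts, DESeq2 1.42.0, no TMM, a minimum of 3000 UMIs or 50 cells, no mixed barcodes, a marker gate in place of clusters, no protocol term, each protocol alone, leaving out each library and, added after seeing the data, 4 other seeds of the clustering and the macrophage-like subsets apart. The clustering reported replaces 2 earlier runs at lower numerical precision, 1 of which called *Tlr13* in macrophage-like cells on DDC diet, so that it can be repeated exactly. The tests were checked on simulated counts. The recovery library was left out of all tests for want of a replicate.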

Additional observations from a re-analysis of the deposited data

Results flagged for a closer look

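Of 47 groups of 4 to 6 libraries checked for a single library far from the rest, 3 had one, where chance gives about 1 in 20. *Tlr2* in macrophage-like cells at progression was 145 CPM in D9 A, and the other 5 libraries ran from 40.6 to 78.7 CPM. *Tlr3* in LSEC-like cells at progression was 55.2 CPM in D19 B, against 34.9 to 42.1 CPM in the other 5. *Tlr3* in BEC-like cells at progression was 17.2 CPM in D19 A, against 26.8 to 30.7 CPM.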

How the results depend on the processing

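The 29 pairs of receptor and type called higher numbered 24 to 31 when 1 library at a time was left out, 24 without D25 B, where *Tlr5* was no longer tested, and none of the 29 turned direction under any alternative in which it was tested. *Tlr5* lost its call in macrophage-like cells with the marker gate, *Tlr3* in BEC-like and *Tlr9* in pDC-like cells in protocol A alone, and *Tlr11* in cDC2-like and *Tlr5* in macrophage-like and neutrophil-like cells in protocol B alone. *Tlr5* was not tested in protocol A alone or with at least 3000 UMIs per cell. The 4 other seeds of the clustering gave 29 pairs each, with 85.8% to 90.2% of cells keeping their name. For DDC against steady state, where 0 pairs were called, the number was 8 without a filter on low counts (4 of them in BEC-like cells, with 1 steady-state library), 4 with DESeq2 (3 in BEC-like cells), 3 with the marker gate, 2 without mixed barcodes (*Tlr13* in macrophage-like and *Tlr3* in pDC-like cells), 1 with at least 50 cells, 1, 2, 1 and 1 with seeds 2 to 5 of the clustering, and 0 to 1 with 1 library left out (1 without D0 A, D9 A, D19 B or D25 B). The cause was not tested, and the shares of all genes called in these alternatives are not given. Without D0 A and with at least 50 cells, the pair was *Tlr7* in cDC2-like cells, with D0 B as the only steady-state library. *Tlr13* in macrophage-like cells, called with each of the 4 other seeds, kept its direction in every alternative, and its adjusted p ran from 0.00124 to 0.311. For progression against onset, where 0 pairs were called, the number was 1 without a filter (*Tlr13* in LSEC-like cells), 1 without mixed barcodes and 1 with the marker gate (*Tlr1* in macrophage-like cells in both), and 0 to 1 with 1 library left out (1 without D5 B). Of 63 neighbour pairs 10 differed, 10 with a pseudocount of 5 and 11 with at least 50 cells, where *Tlr7* in pDC-like against macrophage-like cells no longer passed, BEC-like cells came first for *Tlr5* and other types became neighbours (*Tlr1* macrophage-like over cDC2-like, *Tlr2* LSEC-like over cDC1-like and *Tlr5* cDC2-like over cDC1-like cells passed). Depth limits *Tlr5*, which could be tested against the diet in 2 types, and the comparisons with the diet rest on at most 2 steady-state libraries.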
